A study of Mus musculus with 768 samples.

Results

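The cells described here were vascular cancer-associated fibroblast-like (vCAF-like) cells of mouse mammary tumors, divided by whether they carried transcripts of *Dcn*. A well was kept with at least 10000 reads of mouse genes and at least 1000 genes detected, which 717 of 768 wells met. For each kept cell a vascular score V was the mean log2(RPKM + 1) of *Rgs5*, *Higd1b*, *Kcnj8*, *Rgs4*, *Abcc9* and *Gja4*, and a matrix score M the same mean of *Dcn*, *Lum*, *Mfap5*, *Olfml3*, *Smoc2* and *Serpinf1*. RPKM is a read count scaled to gene length and to the depth of the cell. A cell was called vCAF-like with V of at least 4 and above M, which gave 496 cells, 70.4% of the kept cells in tumor 1 and 67.9% in tumor 2. Of these, 32 were *Dcn*-positive, with a *Dcn* RPKM of at least 10, and they were compared with *Dcn*-zero cells, which had 0 *Dcn* reads. The remaining cells, called *Dcn*-low, held *Dcn* reads but an RPKM under 10 and entered no test. The cells were thus chosen by the measured levels of these 12 genes, which are therefore given as descriptions only.

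Both tumors came from mice of the FVB/N-Tg(MMTVPyVT)634Mul/J strain, in which the polyoma middle T oncogene is driven by the mouse mammary tumor virus promoter. The mice were 14 weeks old, carried the transgene alike and received no treatment. Viable single cells negative for EpCAM, CD45, CD31 and NG2 had been sorted to deplete epithelial, immune and endothelial cells and pericytes, and each tumor filled 1 plate for Smart-seq2, a full-length transcript method with 1 cell per well and no molecular identifiers. The tumor is the replicate (n = 2), and tumor and plate cannot be told apart.

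Decorin, the product of *Dcn*, is a small leucine-rich proteoglycan that binds collagen fibrils and sequesters TGF-beta, and it is a standard transcript of matrix-producing fibroblasts. The vascular score is built from genes of mural cells, which wrap small vessels. *Rgs5* and *Rgs4* encode regulators of G protein signalling, *Kcnj8* and *Abcc9* the subunits of an ATP-sensitive potassium channel, *Gja4* a gap junction protein and *Higd1b* a mitochondrial protein of pericytes. On GRCm38 *Dcn* lies at chr10:97479500-97518163, and *Lum*, which encodes the related proteoglycan lumican, at chr10:97565501-97572703.

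The 17 *Dcn*-positive cells of tumor 1 were 6.51% of its vCAF-like cells (exact binomial 95% interval 3.84 to 10.2), and the 15 of tumor 2 were 6.38% (3.62 to 10.3). In cells of 100000 to 400000 reads the shares were 4.11% and 3.16%. *Dcn*-low cells made up 42.5% and 29.8%, and *Dcn*-zero cells 51% and 63.8%, which was 150 cells in tumor 2. The *Dcn*-positive share of each tumor thus lay within the interval of the other, while *Dcn*-zero cells were the larger part in tumor 2. These intervals cover counting error only. Cells that resembled matrix CAFs (mCAF-like, M of at least 4 and above V) numbered 96 and 90, and cells of developmental CAF genes (dCAF-like) 10 and 18, of which 2 and 0 were also mCAF-like and 0 and 1 also vCAF-like.

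V was above M by construction, but the classes did not sit at the same place on either score. The median V was 7.60 and 8.11 in *Dcn*-positive cells of tumors 1 and 2 against 9.14 and 9.45 in *Dcn*-zero cells. The median M was 2.72 and 1.57 against 0.704 and 0.739, where M includes *Dcn* itself. For scale, mCAF-like cells had a median M of 10.3 and 9.71 and a median V of 1.01 and 0.982. Only 3 *Dcn*-positive cells, all of tumor 1, had M above 5, and these were the *Dcn*-positive cells closest to the boundary, in wells C4 (V 6.44, M 5.13), G7 (V 8.11, M 6.47) and N14 (V 7.34, M 5.65). Among mCAF-like cells with a *Dcn* RPKM of at least 10 and V of at least 4, those closest to the boundary, all of tumor 2, had V 5.54 and M 5.56, V 4.04 and M 4.17, and V 6.43 and M 6.69, with 30, 47 and 73 *Dcn* reads.

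**Figure D1:**
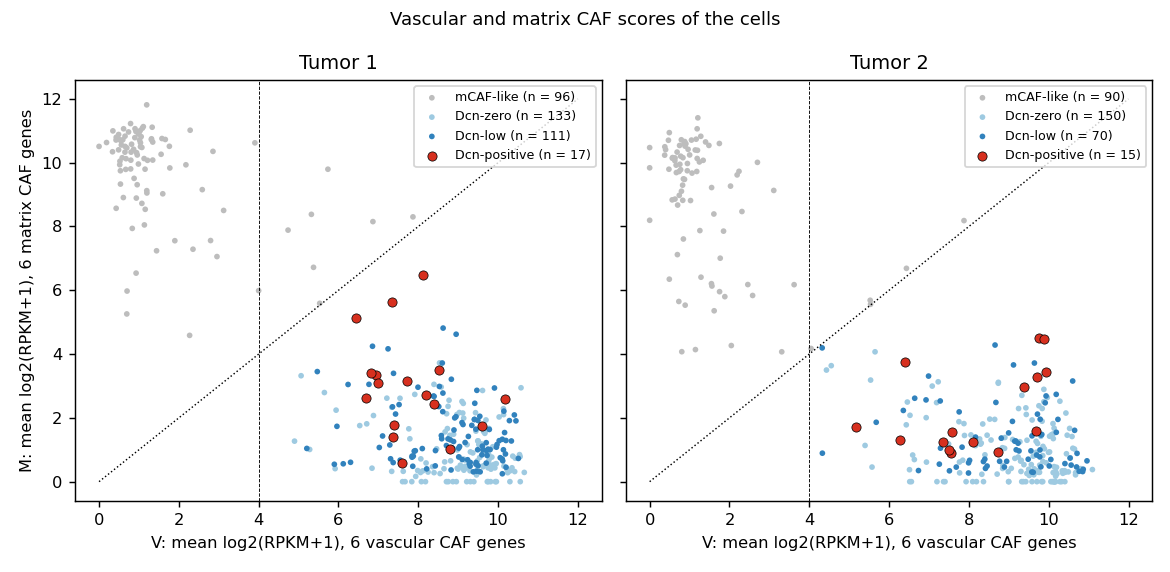
The vascular score V (horizontal axis) and the matrix score M (vertical axis), both as mean log2(RPKM + 1) over 6 genes, for every mCAF-like and vCAF-like cell of each tumor. The dotted line marks V equal to M and the dashed line V of 4. The 32 *Dcn*-positive cells, in red, lie among the other vCAF-like cells, and 3 of tumor 1 approach the dotted line.

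*Dcn* levels spanned a wide range within the *Dcn*-positive class. The lowest, median and highest RPKM were 10.6, 58.2 and 1093 in tumor 1 and 10.1, 22.8 and 136.1 in tumor 2, against medians of 1924 and 1335 and highest values of 9947 and 8381 in mCAF-like cells. The *Dcn*-positive medians therefore lay far below the mCAF-like medians, and 2 cells of tumor 1 exceeded 1000 RPKM. The values nearest the limit of 10 RPKM ran without a gap, from 9.52, 9.53 and 9.58 in *Dcn*-low cells to 10.1, 10.4 and 10.6 in *Dcn*-positive cells.

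Behind these RPKM values stood very different numbers of reads. Among the 17 *Dcn*-positive cells of tumor 1, 1 had 1 *Dcn* read, 4 had 2, 2 had 3 to 9, 5 had 10 to 99 and 5 had 100 or more. Among the 15 of tumor 2, 2 had 1 read, 3 had 2, 4 had 3 to 9 and 6 had 10 to 99. The class thus joined 16 cells with at least 10 reads, of which 10 were in tumor 1, and 16 cells with 1 to 9 reads. In comparison, 85 of 96 and 72 of 90 mCAF-like cells had 100 reads or more.

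Depth stood beside the class as follows. The median number of mouse reads was 161460 and 90792 in *Dcn*-positive cells, 222787 and 223765 in *Dcn*-low cells and 186801 and 185085 in *Dcn*-zero cells. A single read is worth more RPKM in a shallow cell, and the *Dcn*-positive cells of 1 or 2 reads had 12981 to 84735 reads. The median share of ERCC spike-in reads, which rises as a cell yields less RNA, was 15.0% and 12.8% in *Dcn*-positive cells and 14.8% and 12.2% in *Dcn*-zero cells, but the upper quartile was 28.7% and 40.7% against 19.5% and 17.5%. In 8 *Dcn*-positive cells, 4 per tumor, the ERCC share was at least 40%, and only C4 of these had 10 or more *Dcn* reads. The number of genes detected had medians of 4096 and 4431 in *Dcn*-positive and 3958 and 4182 in *Dcn*-zero cells.

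**Figure D2:**
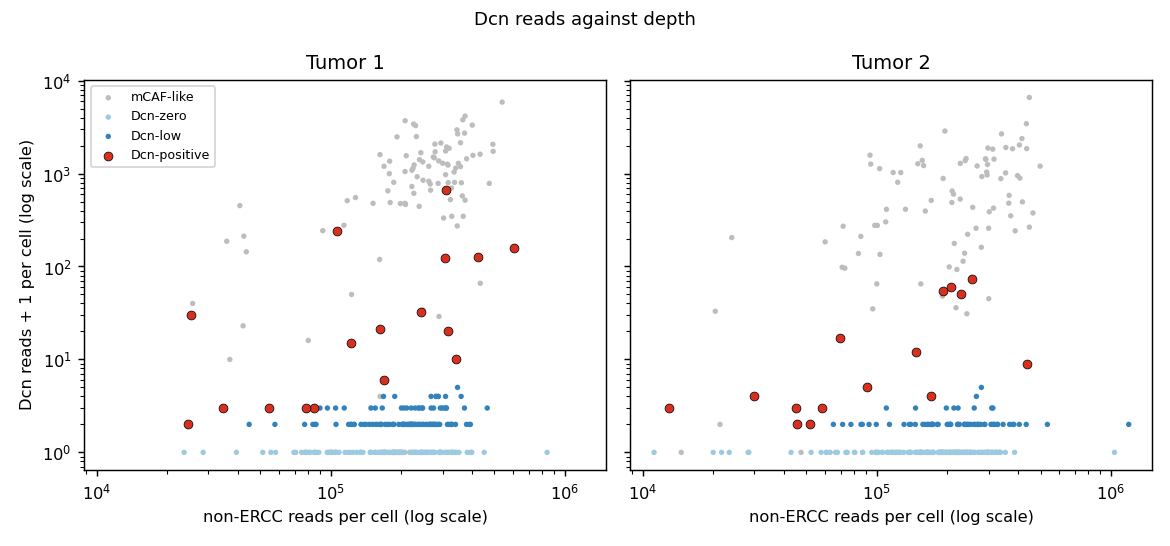
*Dcn* reads plus 1 (vertical axis, log scale) against the reads of mouse genes per cell (horizontal axis, log scale) in each tumor. *Dcn*-positive cells, in red, include 16 cells of 1 to 9 reads, most of them shallow, and 16 spread-out cells of at least 10 reads, and mCAF-like cells, in grey, mostly lie above 100 reads.

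A single *Dcn* read was common in vCAF-like cells. At full depth 49% of vCAF-like cells in tumor 1 and 36.2% in tumor 2 had at least 1 read, against 97.9% and 96.7% of mCAF-like cells. In dCAF-like cells, with a median M of 2.55 and 2.41 against 1.02 and 0.920 in vCAF-like cells, the share was 80% (8 of 10) and 33.3% (6 of 18). With every cell thinned to 50000 reads, leaving out shallower cells, the vCAF-like share was 19.3% (49 cells) and 13.4% (30 cells), the mCAF-like share 97.8% and 98.8% and the dCAF-like share 60% and 12.5%. Median depths before thinning were 247903.5 and 207872.5 reads in dCAF-like cells. The vCAF-like share was below or close to that of dCAF-like cells, which are no comparison free of matrix transcripts, and whether 1 or 2 reads mark expression was not tested.

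The reverse was measured as well. Among mCAF-like cells, *Rgs5* reached 10 RPKM in 34.4% and 25.6%, *Rgs4* in 13.5% and 20%, *Kcnj8* in 10.4% and 8.89% and *Gja4* in 1.04% and 2.22%. The share with *Rgs5*, the vascular gene of highest RPKM in vCAF-like cells, was thus larger than the *Dcn*-positive share of vCAF-like cells.

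*Dcn* reads were tallied over each plate. Of 115928 reads on the plate of tumor 1, mCAF-like cells held 98%, *Dcn*-positive cells 1.25% (1449 reads) and *Dcn*-low cells 0.135%. Of 74421 on the plate of tumor 2, they held 99.1%, 0.386% and 0.112% (83 reads). The vCAF-like *Dcn* signal was therefore carried by a few cells, and the cell in well D1 of tumor 1 alone held 667 reads.

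For genes that come nearly only from mCAF-like cells, the reads found 1 or 2 at a time in vCAF-like cells can be set beside each other. Such *Dcn* reads were 0.116% of the plate's *Dcn* reads in tumor 1 and 0.113% in tumor 2. Over the matrix genes with at least 90% of their plate's reads in mCAF-like cells, *Dcn* included, the same share had a median of 0.159% (range 0.0990 to 0.269, 18 genes) in tumor 1 and 0.156% (0.0901 to 0.867, 19 genes) in tumor 2. *Dcn* lay within this range and below the median in both tumors. Cells of 3 or more reads of a gene do not enter its share. *Dcn* had 12 and 6 vCAF-like cells of 3 to 9 reads, so its place in the range depends in part on this cutoff. Its neighbour *Lum* was at 0.131% and 0.108%, and *Pdgfra*, which encodes a growth factor receptor of fibroblasts, at 0.228% and 0.212%. What brought these reads into the wells was not tested.

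**Figure D3:**
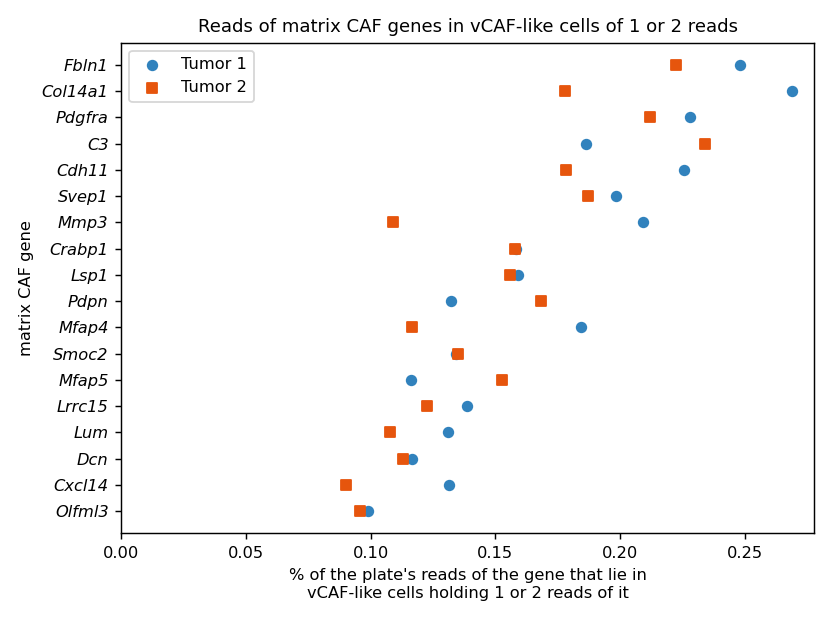
Share of the plate's reads of each gene (horizontal axis, percent) that lie in vCAF-like cells holding 1 or 2 reads of it, for *Dcn* and 17 matrix genes with at least 90% of their reads in mCAF-like cells of both tumors. All shares lie between 0.0901% and 0.269%, and *Dcn* is at 0.116% in tumor 1 and 0.113% in tumor 2.

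*Dcn* in nearby wells was measured by position on the plate. The mean log2(*Dcn* RPKM + 1) of the up to 8 adjacent wells had a median of 3.41 in tumor 1 and 2.08 in tumor 2 for *Dcn*-positive cells, and of 3.59 and 3.01 for *Dcn*-zero cells. Over the plate row the same mean had a median of 3.77 and 3.48 for *Dcn*-positive cells against 3.57 and 3.22, and over the plate column 3.71 and 2.96 against 3.18 and 3.26. *Dcn*-positive cells were thus lower by adjacent wells, higher by row and split by column. The median number of adjacent mCAF-like wells was 2 and 1 against 2 and 2. These are values without a test.

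The 16 cells with at least 10 *Dcn* reads were examined gene by gene. In order of *Dcn* reads, those of tumor 1 were in wells N15 (14 reads), E9 (19), P17 (20), C4 (29), B1 (31), then H7, G22, G7 and N14, each with over 100 reads, and D1 (667). Their *Dcn* RPKM was 58.2 in N15, 32.2 in E9, 69.04 in P17, 361.5 in C4, 63.6 in B1, 181.6 in H7, 142.8 in G22, 131.8 in G7, 1056 in N14 and 1093 in D1. Those of tumor 2 were in wells O12 (11), M13 (16), D16 (49), C14 (53), I19 (59) and D10 (73), with 40.5, 124.7, 105.7, 136.11, 135.9 and 136.14 RPKM. *Dcn* RPKM and reads thus gave different orders, and depth differed among these cells. Every one of them carried *Rgs5*, from 268.5 RPKM in N15 to 7974 in E9, and *Pdgfrb*, which encodes the growth factor receptor of pericytes, from 199.9 in C4 to 798 in I19. *Mcam*, an adhesion molecule of mural cells, ranged from 60.9 in D1 to 2062 in I19. *Rgs5*, *Pdgfrb* and *Mcam* were thus present in all 16, although other mural genes were at 0, among them *Cspg4* in D1, N14, D10 and M13, *Gja4* in C4, G22, N14 and D16, *Rgs4* in E9, *Notch3* in C4 and *Des* in N14, and *Kcnj8* was at 2.8 RPKM in D1.

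Matrix genes appeared in these 16 cells singly and in changing combinations. Over 17 matrix genes other than *Dcn* with at least 90% of their reads in mCAF-like cells of both tumors, the number at 10 reads or more per cell had a median of 1 (range 0 to 6) in tumor 1 and 1.5 (1 to 3) in tumor 2, against 14 and 13 in mCAF-like cells. *Dcn*-positive cells of 1 to 9 reads had a median of 0 in both tumors, with none in 5 of 7 and 7 of 9 cells. At least 1 such gene was also found in 25.6% and 36% of *Dcn*-zero cells and in 36.9% and 38.6% of *Dcn*-low cells. The cells with 10 *Dcn* reads held such a gene in 9 of 10 and 6 of 6 cells. This last difference is a description, since *Dcn* and 4 of the 17 genes are part of the matrix score that was required to stay below V. A limit of 10 reads is also reached more easily in a deeper cell, and the groups were not matched for depth. In tumor 1 the 10 cells with at least 10 *Dcn* reads held 2624056 of the 3411233 reads of the 17 *Dcn*-positive cells. In tumor 2 the 6 such cells held 1097320 of the 2038954 reads of the 15.

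The genes of the 17 that were read were not read in the same cells throughout, although *Mfap5* and *Lsp1* reached 10 reads in the same cells, G7 and N14. *Olfml3*, an olfactomedin-like secreted protein, had at least 10 reads in E9, G7 and D1 of tumor 1 and in O12, M13, D16 and I19 of tumor 2, which is 3 of 10 and 4 of 6 cells against 15.0% and 20.7% of *Dcn*-zero cells. *Cdh11*, a cadherin of mesenchymal cells, had them in 4 of 10 and 2 of 6 cells against 4.51% and 9.33%. *Fbln1*, a matrix glycoprotein that binds fibronectin and elastic fibres, had them in 3 of 10 and 2 of 6 against 7.52% and 8.67%. *Lum* had them in N14 (37 reads) and D10 (86 reads) only. The combination of *Dcn* with another matrix gene was thus not a fixed one.

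Among the mCAF genes that were missing, *Pdgfra* reached at most 1.9 RPKM in the 16 cells against a median of 67.6 and 43.3 in mCAF-like cells. *Mfap4*, a microfibril protein, was at 0 in all 16, *Mmp3*, a stromelysin, reached at most 1.6 RPKM, and *Lrrc15*, a CAF surface protein, at most 0.6 RPKM. *Svep1*, a large adhesion protein, stayed at or below 0.3 RPKM.

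G7 of tumor 1, with 604296 reads the deepest *Dcn*-positive cell, held 6 of the 17 genes, with 417 reads of *Smoc2*, a calcium-binding matricellular protein, 78 of *Fbln1*, 36 of the microfibril gene *Mfap5*, 25 of *Lsp1*, an actin-binding protein, and *Cdh11* at 139.7 and *Olfml3* at 261.7 RPKM. N14 held *Lum*, *Mfap5*, *Fbln1* and *Lsp1* with 14 to 37 reads each. D1, the cell of most *Dcn*, held *Olfml3* as the only one of the 17, together with *Postn* at 11399 RPKM, *Col1a1* at 3568 and *Dpt*, the dermatopontin gene, at 552, and with *Rgs5* at 4033 RPKM. P17 held *Dcn* and none of the 17. The only vCAF-like cell that the Scrublet doublet caller marked, among 4 cells it marked in all, was D10 of tumor 2, with 73 *Dcn* and 86 *Lum* reads.

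**Figure D4:**
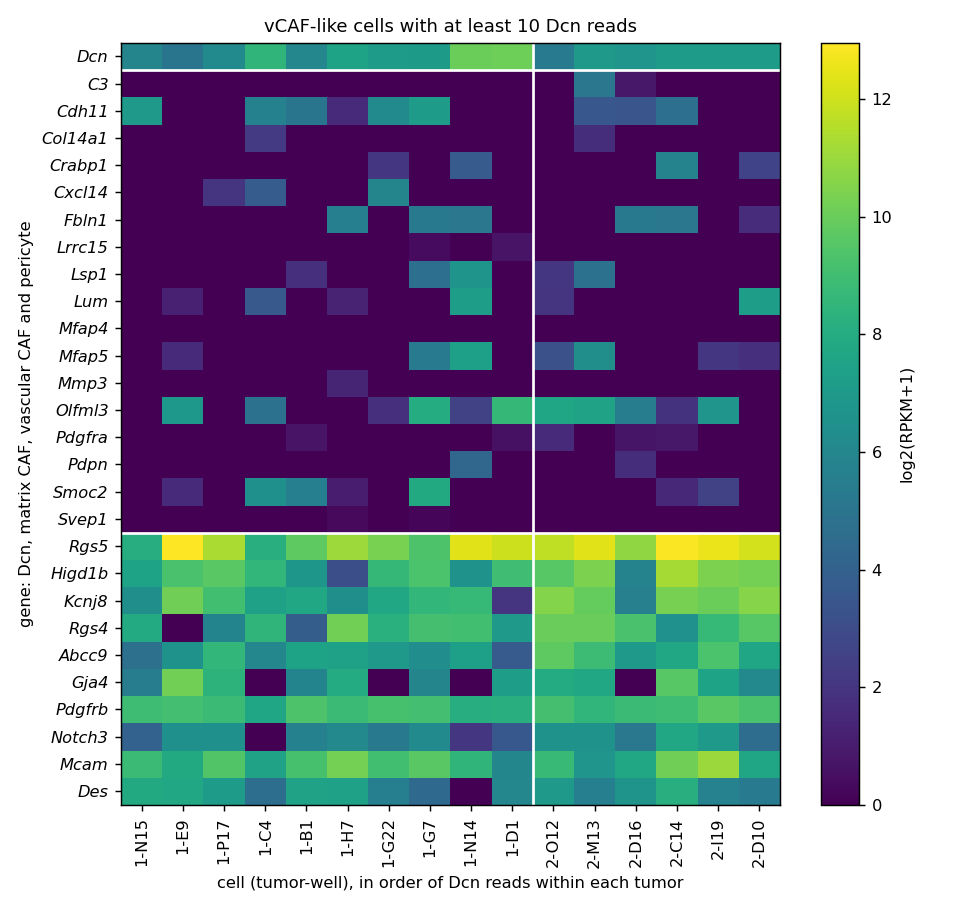
Expression as log2(RPKM + 1), by color, of *Dcn* (top row), 17 matrix CAF genes (middle) and 10 vascular CAF and pericyte genes (bottom) in the 16 vCAF-like cells with at least 10 *Dcn* reads, ordered by *Dcn* reads within each tumor. Of the vascular and pericyte rows, high in part because V chose the cells, *Gja4* is at 0 in 4 cells and *Rgs4*, *Notch3* and *Des* in 1 each, while the matrix rows hold scattered values and *Pdgfra*, *Mfap4*, *Mmp3*, *Lrrc15* and *Svep1* are near 0 throughout.

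The mean of each gene in *Dcn*-positive cells was also placed between its means in *Dcn*-zero cells (0% of the way) and mCAF-like cells (100%). For *Dcn*, the mean per cell was 423 and 121.6 CPM (counts scaled to the depth of the cell) in *Dcn*-positive cells against 4505 and 3656 CPM in mCAF-like cells, which is 9.39% and 3.33% of the way. *Lum* was at 0.333% and 0.926%, *Olfml3* at 1.14% and 1.00%, *Pdgfra* at -0.344% and 0.237% and *Crabp1*, a retinoic acid-binding protein, at -0.0282% and 0.446%. *Mmp2*, a gelatinase, was at 7.01% and 8.32%, and *Loxl1*, a lysyl oxidase that crosslinks elastin, at 9.57% and 3.34%. The value of *Dcn* follows from how the cells were chosen. The 27 matrix genes outside the scores had a median of 1.10% in tumor 1 and -0.278% in tumor 2, with 23 and 25 of 27 under 10%. *Postn*, which encodes periostin and is abundant in vCAF-like cells too, stood apart at 32.1% and 18.2%. *Dpt* was at 61.7% in tumor 1 and -3.37% in tumor 2.

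To compare the classes over all genes, reads were summed over the cells of each class and tumor. The *Dcn*-positive libraries held 3411233 reads (17 cells) and 2038954 reads (15 cells), and the *Dcn*-zero libraries 26458451 and 28515651 reads. Of 11162 genes tested with edgeR's quasi-likelihood test, 0 were called at an adjusted p of 0.05 in either direction (0% of genes tested), and the smallest adjusted p was 0.663. *Dcn* itself, at 451.8 and 145.6 CPM against 0 and 0 by construction, was in this fit and was not called. The lack of calls therefore does not show that other genes were alike. At an unadjusted p of 0.05, 830 genes passed (7.44%), 2.23% higher and 5.21% (581) lower in *Dcn*-positive cells. DESeq2 called 96 of 10729 genes with an adjusted p (0.895%), 46 higher (0.429%) and 50 lower (0.466%), with *Dcn* among them. Both *Dcn*-positive libraries lay above both *Dcn*-zero libraries for 1758 genes (15.7%) and below both for 2698 (24.2%). Without the *Dcn*-positive library of tumor 1, edgeR called 1680 genes, and without that of tumor 2 it called 1697, with the remaining *Dcn*-positive library assumed to vary like the *Dcn*-zero ones. No gene below is therefore called changed, and values are given in CPM per library, in the order *Dcn*-positive tumor 1, *Dcn*-positive tumor 2, *Dcn*-zero tumor 1, *Dcn*-zero tumor 2. Counts of list members below are to be read beside the shares of all genes given in this paragraph.

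Single cells weighed heavily in the small *Dcn*-positive libraries. For the median gene, 44.98% and 53.03% of its reads came from 1 cell in the *Dcn*-positive libraries, against 11.4% and 10.9% in the *Dcn*-zero libraries. A single cell held at least 50% of the reads for 4457 and 5829 genes against 567 and 507. This share is given below for some genes.

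Of 27 matrix CAF genes outside the scores, 18 passed the filter on low levels, a mean of at least 1 RPKM over all compared cells. At an unadjusted p of 0.05, 3 were higher and 1 lower, against 2.23% and 5.21% of all genes tested. Above both *Dcn*-zero libraries lay 10 of 18 and below them 2, against 15.7% and 24.2% of all genes tested. The median log2 fold change was 0.90 (1.33 in tumor 1, 0.19 in tumor 2) against -0.02 over all genes tested. DESeq2 called *Mmp2*, *Postn* and *Loxl1*, all higher. *Mmp2* measured 822, 785, 269.4 and 245.7 CPM, with both *Dcn*-positive libraries well above the *Dcn*-zero libraries (log2 fold change 1.64, SE 0.21, edgeR adjusted p 0.663). *Postn* measured 7347, 7217, 3844 and 4062 CPM (0.88, SE 0.19). For this gene a single cell held 48.99% of the reads of the library of tumor 1, and the median RPKM per cell was 828 and 860 in *Dcn*-positive against 790 and 937 in *Dcn*-zero cells, so the groups did not differ in the same direction at the level of the typical cell. *Loxl1* measured 320, 252.2, 68.5 and 95.03 CPM (1.81, SE 0.31), with 46.98% and 56.7% of the reads of the *Dcn*-positive libraries in 1 cell, and for *Mmp2* these shares were 49.8% and 31.3%.

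The 10 members above both *Dcn*-zero libraries were *Mmp2*, *Postn*, *Loxl1*, *Ccdc80*, *Fbln1*, *Fbln2*, *Vcan*, *Lox*, *Islr* and *Crabp1*, and the 2 below were *Igf1* and *Lrrc15*. *Ccdc80* measured 511, 359.2, 308.9 and 284.8 CPM (log2 fold change 0.55, not called by edgeR or DESeq2). *Pcolce*, an enhancer of procollagen processing, measured 1321, 454, 1135 and 865 CPM and *Gsn*, the actin-severing protein gelsolin, 2194, 568, 1369 and 767, so that for both genes the libraries of the classes overlapped. *Igf1*, a growth factor, was the member lower at an unadjusted p of 0.05, at 1.87, 0, 11.5 and 41.1 CPM. For *Mmp2*, the median RPKM per cell was 40.03 and 3.94 in *Dcn*-positive and 3.85 and 25.2 in *Dcn*-zero cells, again in opposite directions in the tumors.

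Collagens that form or bind fibrils, the partners of decorin, had a log2 fold change above 0 in 12 of 13 members tested, of 17 listed. Over all genes tested, 5412 of 11162 were above 0. At an unadjusted p of 0.05, 6 were higher (*Col1a1*, *Col1a2*, *Col3a1*, *Col5a1*, *Col5a2* and *Col6a1*) and 0 lower, against 2.23% and 5.21% of all genes tested. Above both *Dcn*-zero libraries lay 7 and below them 0, against 15.7% and 24.2% of all genes tested. The median log2 fold change was 0.62 (0.87 and 0.35 in tumors 1 and 2). *Col3a1*, the chain of type III collagen and the only member DESeq2 called, measured 11996, 10015, 6094 and 5112 CPM (log2 fold change 0.97, SE 0.22). *Col1a1* measured 5257, 2538, 1803 and 1911 CPM (1.07, SE 0.39), *Col1a2*, the other chain of type I collagen, 7058, 3401, 2199 and 2337 CPM (1.21, SE 0.39), and *Col6a1*, of the beaded filaments, 4106, 2725, 2124 and 1566 CPM (0.89, SE 0.30). The *Dcn*-positive libraries lay above the *Dcn*-zero libraries for all 4 genes, and tumor 1 lay further above than tumor 2 for the type I collagen genes. In the *Dcn*-positive library of tumor 2, 50.4% of the *Col3a1* reads came from 1 cell. The median summed RPKM of the listed collagens per cell was 3713 in *Dcn*-positive against 2877 in *Dcn*-zero cells of tumor 1 and 1866 against 2617 in tumor 2, opposite directions in the tumors.

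Of 14 other small leucine-rich proteoglycans, the family of decorin, 7 were tested, with 1 higher and 0 lower at an unadjusted p of 0.05. Above both *Dcn*-zero libraries lay 2 and below them 0, against 15.7% and 24.2% of all genes tested. The median log2 fold change was 2.02 (1.95 in tumor 1, -0.25 in tumor 2). Biglycan, decorin's closest relative, encoded by *Bgn*, was abundant in both classes at 10539, 3896, 5237 and 4637 CPM, and *Aspn*, the asporin gene, measured 1803, 2252, 2132 and 1907 CPM, so neither separated the classes. *Prelp* measured 145.3, 116.7, 37.6 and 27.1 CPM (2.02, SE 0.37), and DESeq2 called it, but a single cell held 93.6% and 100% of its reads in the *Dcn*-positive libraries, and its log2 fold change was -2.32 with only the cells of at least 10 *Dcn* reads as *Dcn*-positive. *Ecm2*, an adhesion protein of the matrix, measured 176.2, 177.1, 169.5 and 128.9 CPM. The median of the list is the value of *Prelp* itself, and *Fmod*, the fibromodulin gene, measured 144.99, 0.507, 25.98 and 1.65 CPM.

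**Figure D5:**
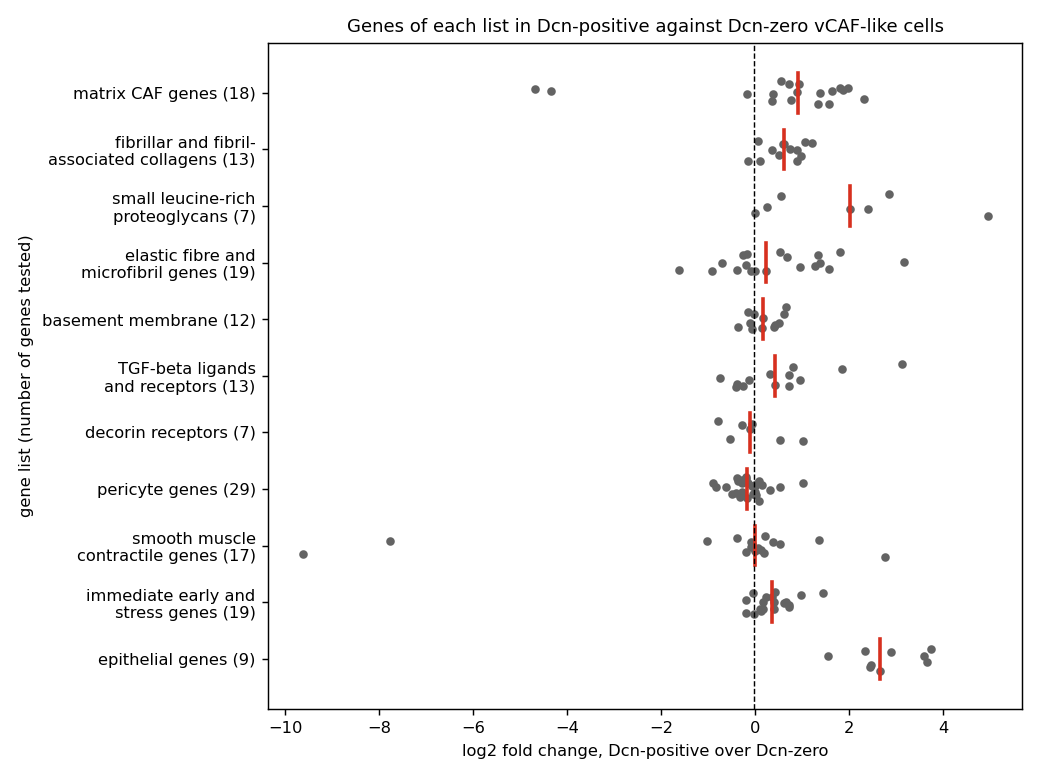
Log2 fold change of *Dcn*-positive over *Dcn*-zero vCAF-like cells (horizontal axis) for each tested gene of 11 lists (points), with the list's median (red line) and the median of all genes tested (dashed line, -0.02). The medians of the matrix CAF genes (0.90) and collagens (0.62) lie to the right and that of the pericyte genes (-0.16) slightly to the left.

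Of 21 genes of elastic fibres and microfibrils, 19 were tested, 2 higher (*Loxl1* and *Eln*) and 0 lower at an unadjusted p of 0.05, and both were called by DESeq2. The median log2 fold change was 0.23, 0.92 in tumor 1 and -0.14 in tumor 2. Of the 19, 7 lay above both *Dcn*-zero libraries and 3 below, against 15.7% and 24.2% of all genes tested. *Eln*, the elastin gene, measured 87.9, 198.9, 17.9 and 13.9 CPM, with 50.4% and 93.6% of the reads of the *Dcn*-positive libraries in 1 cell. *Fbn1*, of the fibrillin microfibrils, measured 1498, 1427, 818 and 1197 CPM and *Mfap2* 210.5, 137.5, 110.4 and 105.6 CPM, both with the *Dcn*-positive libraries above the *Dcn*-zero ones by less than the test could call. *Efemp2*, which assembles elastic fibres, measured 331.8, 201.4, 225.6 and 230 CPM.

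Decorin binds TGF-beta, and 13 genes of its ligands, binding proteins and receptors were tested. At an unadjusted p of 0.05, 1 was higher (*Smad7*, an inhibitor of the pathway, at 44.6, 32.98, 8.95 and 12.7 CPM) and 0 lower, and the median log2 fold change was 0.42 (-0.06 and 0.17 within the tumors). *Tgfb3* measured 255.7, 439, 202.3 and 218.97 CPM, with 90.99% of the reads of the *Dcn*-positive library of tumor 2 in 1 cell and a log2 fold change of -0.27 with only the cells of at least 10 *Dcn* reads as *Dcn*-positive. The receptors *Tgfbr1* and *Tgfbr2* measured 272.8, 172.002, 116.2 and 152.6 CPM and 212.96, 231.4, 173.9 and 180.6 CPM, and *Ltbp4*, which stores latent TGF-beta, 410, 443, 612 and 500 CPM. The receptors were thus higher, *Tgfbr1* mostly in tumor 1, and *Ltbp4* lower in both *Dcn*-positive libraries, and none passed the test. Of the 13 genes, 4 lay above both *Dcn*-zero libraries and 2 below, against 15.7% and 24.2% of all genes tested.

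Of 12 cell-surface receptors of decorin, 7 were tested, 1 higher and 0 lower at an unadjusted p of 0.05, with a median log2 fold change of -0.10 (0.10 and -0.22). *Igf1r*, the receptor of insulin-like growth factor 1, measured 101.6, 140, 54.6 and 64.4 CPM (1.02, SE 0.34), and had a read in 82.4% and 60% of *Dcn*-positive against 43.6% and 56% of *Dcn*-zero cells. *Itgb1*, an integrin subunit, measured 2439, 1671, 2453 and 1948 CPM, *Lrp1*, an endocytic receptor, 747, 426, 341.6 and 472, *Egfr* 3.12, 53.3, 41.5 and 39.8, and *Insr* 44.9, 40.6, 63.1 and 85.3. Of the 7, the insulin receptor *Insr* alone lay below both *Dcn*-zero libraries in both *Dcn*-positive libraries, and *Igf1r* alone lay above. Over all genes tested, 24.2% lay below and 15.7% above.

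Pericyte genes had a median close to that of all genes. Of 31 outside the vascular score, 29 were tested, 0 higher and 3 lower at an unadjusted p of 0.05. Over all genes tested, 2.23% were higher and 5.21% lower. Of the 29, 2 lay above and 9 below both *Dcn*-zero libraries, against 15.7% and 24.2% of all genes tested. The median log2 fold change was -0.16 (-0.20 and -0.12). *Pdgfrb* measured 3148, 2541, 2808 and 2832 CPM, *Mcam* 1894, 2461, 2015 and 2333, *Sparcl1*, a matricellular protein of the vessel wall, 6897, 8827, 8303 and 8160, and *Cygb*, the cytoglobin of mesenchymal cells, 1547, 1192, 1351 and 1338. For these abundant genes the libraries of the classes overlapped. The 3 lower genes were *Cox4i2*, an oxygen-sensing subunit of cytochrome c oxidase (151.5, 150, 286.5 and 272.3 CPM, log2 fold change -0.89, SE 0.23), *Vtn*, vitronectin (285.6, 213.1, 509 and 382.7 CPM, -0.84, SE 0.28), and *Gucy1b3*, a subunit of the nitric oxide receptor (404, 365.3, 578 and 598 CPM, -0.61, SE 0.21). *Cspg4*, the transcript of NG2, against which the cells had been sorted, was present at 330.5, 252.7, 350 and 474 CPM. Cell by cell, a median of 23 and 24 of the pericyte genes reached 10 RPKM in *Dcn*-positive cells, 25 and 25 in *Dcn*-zero cells and 9 and 9 in mCAF-like cells.

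Of the vascular score genes, as a description, *Rgs5* measured 8947, 11173, 12258 and 10736 CPM and *Kcnj8* 1101, 1510, 2015 and 2128 CPM. All 6 had a log2 fold change below 0. Of the matrix score genes, *Serpinf1*, the pigment epithelium-derived factor, measured 809, 401, 102.9 and 244.3 CPM, *Olfml3* 186.1, 73.6, 58.9 and 48.4, *Mfap5* 121.9, 7.10, 1.09 and 6.13, *Smoc2* 146.5, 3.55, 19.9 and 3.74 and *Lum* 13.7, 45.2, 18.4 and 3.30. A single cell held 88.7% of the *Smoc2* reads of the *Dcn*-positive library of tumor 1, and *Lum* did not follow *Dcn* in that tumor.

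Smooth muscle genes showed no common direction, with 17 tested of 17, 1 higher (*Ckb*) and 2 lower (*Casq2* and *Cnn1*) at an unadjusted p of 0.05 and a median log2 fold change of 0.01. *Acta2*, smooth muscle actin, measured 3412, 5136, 4090 and 3728 CPM, *Myl9*, a myosin light chain, 1506, 1218, 1540 and 1173, *Tpm1*, a tropomyosin, 741, 1651, 985 and 853, and *Tagln*, an actin-binding protein of smooth muscle, 927, 557, 547 and 487. The contractile genes *Acta2*, *Myl9* and *Tpm1* overlapped between the classes. Of the 17, *Tagln* and *Ckb* lay above both *Dcn*-zero libraries and *Casq2*, *Cnn1* and *Smtn* below. Over all genes tested, 15.7% lay above and 24.2% below, and 2.23% were higher and 5.21% lower at an unadjusted p of 0.05. *Casq2*, the calcium store protein calsequestrin 2, measured 0.312, 1.01, 158.99 and 104.1 CPM, with a read in 1 *Dcn*-positive cell of each tumor, and was the only member that DESeq2 called, lower. *Cnn1*, the calponin gene, measured 0, 0, 3.17 and 9.49 CPM. Basement membrane genes had a median of 0.16 (12 of 21 tested, 0 higher and 0 lower at an unadjusted p of 0.05), with the type IV collagen gene *Col4a1* at 8455, 6076, 6085 and 7012 CPM, *Col4a2* at 3942, 2607, 3162 and 3738, the nidogen gene *Nid1* at 1349, 1327, 1184 and 1539 and the laminin gene *Lamb1* at 556, 451, 498 and 591.

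*Tnc*, the tenascin C gene, which belongs to none of the lists, was named after its values were seen, as were *Casq2*, *Eln*, *Prelp* and the lower pericyte genes. It measured 735, 1173, 87.04 and 117.6 CPM (log2 fold change 3.22, SE 0.35, called by DESeq2), and 54.1% and 95.1% of its reads in the *Dcn*-positive libraries came from 1 cell.

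Across the vCAF-like cells of each tumor no gene followed *Dcn* closely. Ranked by the lower of the 2 tumors' Spearman correlations of log2(RPKM + 1), *Igf1r* came at the top (0.18 and 0.18), followed by *Parp9*, *Nfix*, *Ufsp2*, *Lrrc71*, *Gstm1*, *Spp1*, *Haus3*, *Ankrd12* and *Rpl39l*, the last at 0.14 and 0.12. In such sparse counts these values are weak, and cells share their plate and differ in depth.

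Markers of other cells moved with the class in places. Of 17 epithelial genes, 9 were tested, 0 passed an unadjusted p of 0.05, and the median log2 fold change was 2.66, -1.58 in tumor 1 and 2.98 in tumor 2. A median of 0 and 2 epithelial genes reached 10 RPKM in *Dcn*-positive cells, against 0 and 1 in *Dcn*-zero cells. The summed RPKM of the list ranged from 0 to 1088 and from 0 to 38449 in *Dcn*-positive cells and from 0 to 273.1 and 0 to 1852 in *Dcn*-zero cells, and *Epcam*, *Krt8* and *Krt18* were at 0 in all *Dcn*-positive cells of tumor 1. In tumor 2 the signal came from B4, with 14 epithelial genes, 8104 genes detected and 1 *Dcn* read, and M13, with 12 epithelial genes and 6 of 15 immune genes in the table. The other *Dcn*-positive cells had 0 to 3 epithelial genes. *Lcn2*, a secreted protein of epithelial cells, measured 23.1, 917, 12.1 and 62.6 CPM. With the cells of at least 5 epithelial genes left out, edgeR called 0 of 11112 genes (8.01% at an unadjusted p of 0.05), and the median log2 fold change was 0.92 for the matrix CAF genes and -0.17 for the pericyte genes.

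The endothelial genes *Pecam1*, *Cdh5* and *Kdr* had 0 reads in *Dcn*-positive and *Dcn*-zero cells. Other endothelial genes were read in these cells. Of 14 in the list, 5 passed the filter on low levels, with 0 higher and 1 lower at an unadjusted p of 0.05. Above both *Dcn*-zero libraries lay 0 of the 5 and below them 1, against 15.7% and 24.2% of all genes tested. Their median log2 fold change was -0.31 (-0.73 in tumor 1, 0.0023 in tumor 2). For immune cells 2 of 16 genes were tested (median -0.19, 1.28 in tumor 1 and -1.46 in tumor 2), and for adipocytes 2 of 8 (-0.61, -2.45 and 0.63), in opposite directions in the tumors. Of 6 developmental CAF genes 2 were tested (median 3.41, 1.21 and 3.43 in the tumors, none at an unadjusted p of 0.05). B4 of tumor 2, which was also dCAF-like, held all 6 with a summed RPKM of 10822, against class medians of 0 in tumor 1 and 1.51 in tumor 2. Of 13 genes of universal fibroblasts 7 were tested (median 2.45, but 0.27 in tumor 1 and 0.83 in tumor 2, *Tnxb* and *Has1* higher at an unadjusted p of 0.05 and called by DESeq2), though a single cell held all reads of *Has1*, a hyaluronan synthase, in the *Dcn*-positive library of tumor 1. *Has1* measured 186.8, 0, 0.400 and 0.640 CPM and was thus higher in tumor 1 alone, so its call and its part in the list median rest on 1 cell. For *Tnxb*, 1 cell held 59.9% and 92.5% of the reads of the *Dcn*-positive libraries. Cycling genes had a median of -1.11, -6.39 in tumor 1 and -0.40 in tumor 2 (6 of 6 tested, 0 at an unadjusted p of 0.05). Of the 6, 4 lay below both *Dcn*-zero libraries and 0 above, against 24.2% and 15.7% of all genes tested. A cycling score of at least 3 was found in 0 of 17 *Dcn*-positive cells of tumor 1, a count that allows a share of up to 17.6% by the limit from 3 counts and 19.5% by the exact binomial interval, and in 3 of 15 in tumor 2 (20%), among them B4 and M13, against 8.27% and 8.67% of *Dcn*-zero cells.

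Immediate early and stress genes, which cell dissociation can induce, had a median log2 fold change of 0.37 (0.59 and -0.07, 19 of 19 tested, 1 higher and 0 lower at an unadjusted p of 0.05). *Fos* measured 5498, 2375, 4228 and 2733 CPM, *Egr1* 2377, 1377, 1356 and 1450, *Zfp36* 1432, 510, 786 and 722 and *Dusp1* 1042, 594, 692 and 555, all higher in tumor 1 than in tumor 2 among *Dcn*-positive libraries. The higher member was *Atf3*, a stress-induced transcription factor, at 217.01, 121.3, 65.7 and 59.4 CPM (log2 fold change 1.44, SE 0.39).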

How the data were processed

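The authors aligned Smart-seq2 reads to mm10 with STAR, counted reads on RefSeq genes and deposited raw counts (whole reads per gene and well, not normalized) and RPKM values (scaled to gene length and depth), for 24490 mouse genes and 92 ERCC spike-ins. Columns and wells were paired through the sample titles, with 0 columns unused, and wells were grouped by the plate in their labels, each plate being 1 tumor by the study's methods. Cells were scored on the deposited RPKM and tested on the deposited counts. The members and gene lists were chosen with earlier results of these data known.

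Counts were summed per class and tumor (4 libraries) and tested with edgeR 4.0.16 in R 4.3.3 (TMM, quasi-likelihood, Benjamini-Hochberg) on genes whose RPKM averaged 1 or more in the compared cells. No tumor block was used, as the study compared populations without regard to tumor. CPM of libraries use TMM-scaled totals, and fold changes use edgeR's prior count. The percent of the way is the difference of mean CPM per cell between *Dcn*-positive and *Dcn*-zero cells over that between mCAF-like and *Dcn*-zero cells. Both libraries of a tumor share its plate, and the tumor difference of *Dcn*-positive libraries correlated at 0.0921 across genes with that of *Dcn*-zero libraries. P-values measure the spread between 4 libraries of 2 tumors.

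On simulated counts for the 11162 genes of this comparison, the test called 17 of 100 genes changed 4-fold, 44 of 100 changed 8-fold and 2 of 10949 unchanged genes. With the tumor block these were 43, 70 and 46. The changed genes were drawn from the more abundant ones, both classes were given the same spread, and no tumor effect was simulated. The weight of single cells in the *Dcn*-positive libraries was not simulated apart, so these rates may not hold for the real libraries. Scrublet in scanpy 1.11.5 was run for doublets, and marked cells were kept. Alternatives were DESeq2 1.42.0, the tumor block, other scalings, filters, class limits and depth limits, and leaving out libraries. Those on at least 2 or 10 *Dcn* reads, epithelial genes, ERCC share and left-out libraries were chosen after seeing the data. Depth was 12981 to 604296 reads in *Dcn*-positive cells, with no molecular identifiers, so exact binomial intervals (95%) and limits from 3 counts cover counting error only.

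Named genes were the up to 12 genes called in each direction (none), up to 4 tested members of highest mean RPKM in the lists of matrix, collagen, proteoglycan, pericyte, basement membrane, elastic fibre, TGF-beta, decorin receptor, smooth muscle and stress genes, the 12 score genes and the 10 genes of highest Spearman correlation with *Dcn*. Others were named after their values were seen. Coordinates come from a RefSeq table on GRCm38 (mm10). Counting was not stated to use strand. The result of 1 marker list is not reported here.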

Additional observations from a re-analysis of the deposited data

Results flagged for a closer look

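*Dcn* reads were also found in wells that entered no comparison. The 38 wells of tumor 2 under the depth limits held *Dcn* reads in 11 wells, at 1011 CPM over their 215642 mouse reads. Without the well of most *Dcn* reads, 86 reads and 432 CPM remained. The 13 such wells of tumor 1 held 2 reads, in 2 wells, which is 41.1 CPM and below the 3 counts that a count of 0 allows. Where these reads came from was not tested.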

How the results depend on the processing

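The count of genes called was 0 under the other scalings, filters, class limits and depth limits tried with edgeR, and 96 with DESeq2. Leaving out a library gave 0 to 1697 genes: 1680 (588 higher, 1092 lower) without the *Dcn*-positive library of tumor 1, 1697 (458 higher, 1239 lower) without that of tumor 2, and 0 without either *Dcn*-zero library. With a lone *Dcn*-positive library, that library is assumed to vary like the *Dcn*-zero ones. Tumor as a replicate block, a pairing by tumor and plate, gave 0 genes and changed no call (3.38% of genes at an unadjusted p of 0.05 in place of 7.44%). The median of all genes moved from -0.02 to -0.18 with the block and to -0.19 with ERCC totals. The medians of the matrix CAF and pericyte genes were taken in some settings only: the tumor block, ERCC totals, V at least 4 above M and thinning. They were also taken without Scrublet doublets, with at least 10 *Dcn* reads, and without the cells of many epithelial genes. In these settings the median of the matrix CAF genes stayed above 0, from 0.60 to 1.16, and was 1.33 and 0.19 in the tumors alone. That of the pericyte genes was -0.34 with ERCC totals, -0.0154 with V at least 4 above M, -0.23 after thinning, -0.24 with at least 10 *Dcn* reads, and -0.20 and -0.12 in the tumors alone. From a *Dcn* RPKM of 100, the *Dcn*-positive share was 2.30% and 2.13%, and in cells of 100000 to 400000 reads 4.11% and 3.16%. Thinned to 100000 reads, 31.3% of vCAF-like cells of tumor 1 and 17.3% of tumor 2 held a *Dcn* read. Of 17 genes followed across settings, 15 kept their direction in all 24 settings. *Prelp* turned to -5.54 from a *Dcn* RPKM of 100 and -2.32 from 10 reads, and *Tgfb3* to -0.16, -0.27 and, in cells of 100000 to 400000 reads, -0.20. The cause was not tested. With 2 tumors and 32 *Dcn*-positive cells, 16 of them at 1 to 9 reads, depth limits the class itself.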
